A study of Mus musculus with 54 samples.

Results

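The brains of 12 wild-type mice aged about 20 months, 6 given the HDAC1/2 inhibitor Cmpd60 and 6 given vehicle, were chosen by their labels from the 54 libraries of the series. They are named here by their library numbers, 33 to 38 for Cmpd60 and 27 to 32 for vehicle. The mice were single-housed BL6 males on a chow diet, injected into the peritoneum every day for 14 days with Cmpd60 at 22.5 mg/kg or with its solvent. The labels name the tissue only as brain, with no region or dissection, and they count more vehicle mice than have a brain library here. Poly(A) RNA was sequenced with a directional kit, and the deposited values are read counts per gene. Levels are in CPM, counts scaled to a common library size after TMM normalization, and differences are log2 fold changes of Cmpd60 over vehicle with their standard error (SE) and p from edgeR's quasi-likelihood test.

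HDAC1 and HDAC2 are class I histone deacetylases, which take acetyl groups off histone tails as the catalytic subunits of the Sin3, NuRD and CoREST corepressor complexes. Cmpd60 is a benzamide that inhibits both, and the comparison asks how the RNA of the aged brain stands after a course of it. A brain homogenate mixes regions that each have genes of their own, such as Prkcd in the thalamus, Cbln3 in cerebellar granule cells and Gh in the pituitary below the brain. The level of such a gene follows how much of its region was sampled as well as its expression there, and in bulk RNA fewer cells of a type and less RNA per cell cannot be told apart.

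Vehicle libraries held 26402957 to 32344641 reads on genes and Cmpd60 libraries 29646412 to 57430113. The Cmpd60 libraries were deeper (exact permutation test of the means, two-sided, p = 0.00649, 0.0162 adjusted over 5 library measures) and had counts for more genes, 25850 to 28017 against 24939 to 25861 (exact permutation p = 0.00433, adjusted p = 0.0162). Mitochondrial genes took 3.40% to 4.20% of counts with Cmpd60 and 2.73% to 3.70% with vehicle (exact permutation p = 0.0368, adjusted p = 0.0613). Vehicle library 29 had the largest share of reads outside annotated genes, 10.98%, and Cmpd60 library 35 held RNA of pituitary hormones. Camk2a, Mbp and Slc1a2, which mark neurons, oligodendrocytes and astrocytes, were at or above 1371 CPM in every library. Where a gene had no count, levels up to 0.0520 CPM in the deepest and 0.113 CPM in the shallowest library remain possible from counting error alone.

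Rab26, Arhgef25 and Lgals3bp rose and Fabp7 and Hcn4 fell with Cmpd60 at an adjusted p below 0.05. These 5 are 0.0205% of the 24438 genes tested, with 0.0123% higher and 0.00818% lower. Rab26 is a small GTPase of secretory and synaptic vesicles, Arhgef25 a guanine nucleotide exchange factor for small GTPases, and Lgals3bp a secreted galectin-binding glycoprotein that interferon induces. Fabp7 is the fatty acid-binding protein of radial glia and astrocytes, and Hcn4 a subunit of the channels that carry the pacemaker current. At the unadjusted p below 0.01 that the study used for the brain, 1048 genes passed (4.29%), 552 higher (2.26%) and 496 lower (2.03%). Over all genes the median log2 fold change was 0.0072, with 51.8% above 0 and 48.2% below.

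**Figure D1:**
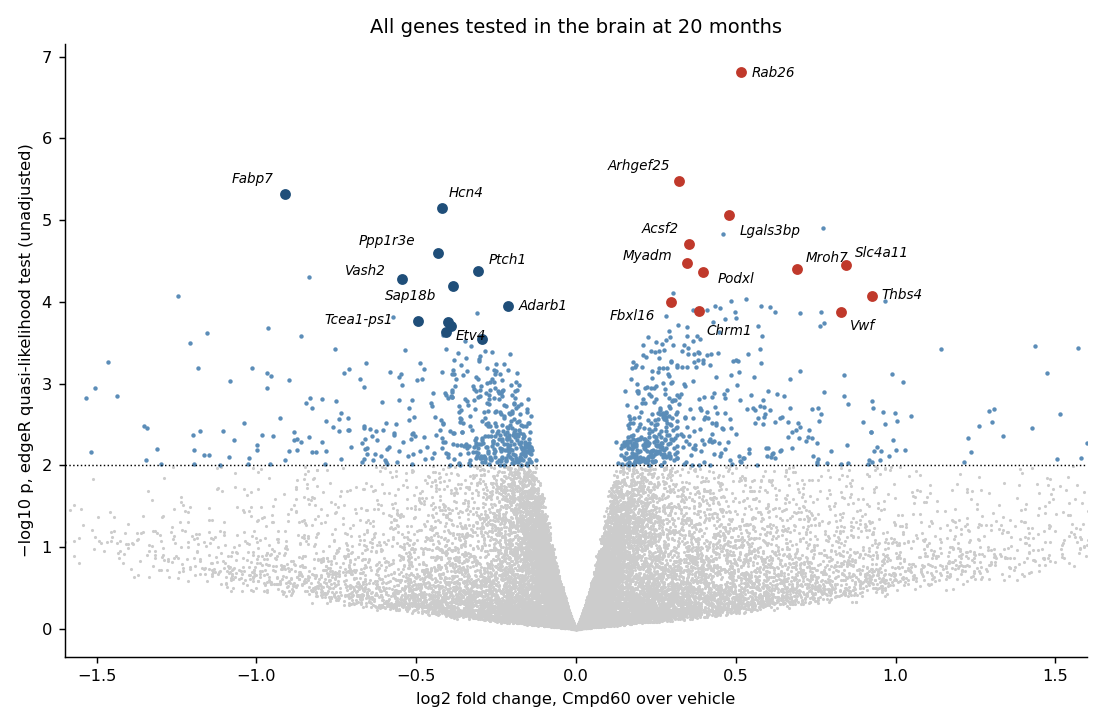
Each point is 1 of the 24438 genes tested, with the log2 fold change of Cmpd60 over vehicle across and −log10 of the unadjusted p upward. The dotted line marks the unadjusted threshold, the larger points are the named genes, and 243 genes beyond ±1.6 are not drawn. Rab26 stands highest, at a log2 fold change of 0.52.

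Sequence before the transcription start is shown for the 3 of these genes in the RefSeq promoter table of build GRCm38.p6, because histone deacetylases act at promoters. Capitals mark matches, on either strand, to the GC box GGGCGG, the interferon element (GAAA, any 2 bases, GAAA), the E box CACGTG or the D box TTATGTAA. Each run is the 250 bases before the start, 5′ to 3′ along the gene.
Hcn4, chr9:58822699-58822948, plus strand: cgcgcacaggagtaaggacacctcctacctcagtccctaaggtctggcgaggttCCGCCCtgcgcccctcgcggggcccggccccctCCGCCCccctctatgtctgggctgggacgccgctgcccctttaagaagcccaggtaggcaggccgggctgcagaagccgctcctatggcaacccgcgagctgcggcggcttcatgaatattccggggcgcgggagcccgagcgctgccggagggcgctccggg
Fabp7, chr10:57784673-57784922, plus strand: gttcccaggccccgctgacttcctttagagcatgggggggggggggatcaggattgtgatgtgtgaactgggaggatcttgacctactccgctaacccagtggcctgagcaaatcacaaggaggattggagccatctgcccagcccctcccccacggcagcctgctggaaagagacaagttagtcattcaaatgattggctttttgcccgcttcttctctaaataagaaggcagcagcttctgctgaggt
Lgals3bp, chr11:118401960-118402209, minus strand: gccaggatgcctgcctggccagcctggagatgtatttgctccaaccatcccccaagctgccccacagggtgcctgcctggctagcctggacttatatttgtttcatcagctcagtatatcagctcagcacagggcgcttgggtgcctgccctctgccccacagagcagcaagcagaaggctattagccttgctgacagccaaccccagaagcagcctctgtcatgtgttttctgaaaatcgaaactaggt
The Hcn4 stretch was 71.2% G and C and held 2 GC boxes, and at least 1 GC box is found in 32.7% of the 32851 stretches of the table. The Fabp7 stretch (54.8% G and C) and the Lgals3bp stretch (55.6%) held no match to these 4 motifs. Only exact matches were sought, so a stretch with no match may still hold a near match to such an element. Of all stretches, 2.98% hold the interferon element, 6.02% the E box and 0.819% the D box.

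Rab26 (ENSMUSG00000079657) was at 19.4 to 22.2 CPM with vehicle (median 20.9) and 25.7 to 31.9 CPM with Cmpd60 (median 30.8). Its log2 fold change was 0.52 (SE 0.06, adjusted p = 0.00375), and every treated library stood above every vehicle library. Arhgef25 (ENSMUSG00000019467) was at 130.4 to 141 CPM with vehicle (median 135) and 155.2 to 181 CPM with Cmpd60 (median 168), a log2 fold change of 0.32 (SE 0.05, adjusted p = 0.0392) with no overlap. Its highest values were in libraries 33, 34 and 37, at 177, 179 and 181 CPM. Lgals3bp (ENSMUSG00000033880) was at 22.6 to 26.0 CPM with vehicle (median 24.7) and 27.9 to 40.7 CPM with Cmpd60 (median 33.0), a log2 fold change of 0.48 (SE 0.08, adjusted p = 0.0423). The groups did not overlap, and libraries 38 and 35 were highest at 40.7 and 39.1 CPM. Without these 2 libraries the log2 fold change of Lgals3bp was 0.35 (adjusted p = 0.0576).

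Fabp7 (ENSMUSG00000019874) was at 22.3 to 46.1 CPM with vehicle (median 32.9) and 12.3 to 19.7 CPM with Cmpd60 (median 17.8), a log2 fold change of -0.91 (SE 0.14, adjusted p = 0.0392). Vehicle mice varied widely, yet the lowest of them, library 29, stood above every treated mouse. Vehicle libraries 29 and 30, at 22.3 and 25.2 CPM, and Cmpd60 library 36, at 12.3 CPM, held the lowest values of their groups. The same libraries were the lowest of their groups in olfactory bulb genes (below). Hcn4 (ENSMUSG00000032338) was at 20.6 to 21.5 CPM with vehicle (median 20.9) and 13.8 to 18.1 CPM with Cmpd60 (median 15.3), a log2 fold change of -0.42 (SE 0.07, adjusted p = 0.0423) with no overlap. It was nearly constant among vehicle mice. Treated libraries 33, 34 and 37 were lower, at 13.8 to 14.5 CPM, than 35, 36 and 38, at 16.2 to 18.1 CPM. Of 8 pacemaking channel genes tested, Hcn4 was the 1 with p below 0.01, with Hcn2 at -0.16 (SE 0.06, adjusted p = 0.284) and Hcn3 at 0.01 (SE 0.08, adjusted p = 0.980). Rab26 was likewise the 1 of 8 secretory Rab genes to pass, with Rab37 at -0.31 (SE 0.11, adjusted p = 0.234) and Rab3a at 0.04 (SE 0.05, adjusted p = 0.795), and Fabp7 the 1 of 7 lipid-binding genes, with Fabp5 at -0.18 (SE 0.09, adjusted p = 0.360). At p below 0.05, 4 pacemaking, 2 secretory Rab and 2 lipid-binding genes passed, beside 3368 of all 24438 genes. These lists were chosen with earlier results of these data known, so the counts are no test of the families.

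The number of adjusted calls depended on single libraries. It was 372 without vehicle library 29 (1.53% of 24262 genes, with 4.12% higher and 2.95% lower at p below 0.01), 36 without Cmpd60 library 36, and 1 to 8 without any other library. Counts of list members with 1 library left out, given below, stand beside 731 to 1715 of all genes at p below 0.01. Rab26 kept an adjusted p below 0.05 in all 12 of these fits (0.000513 to 0.0232), while Arhgef25 and Fabp7 missed it in 8 of 12 and Lgals3bp and Hcn4 in 9 of 12. All 5 kept p below 0.01 throughout. Their groups do not overlap, so their direction could hardly turn when 1 library was left out.

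**Figure D2:**
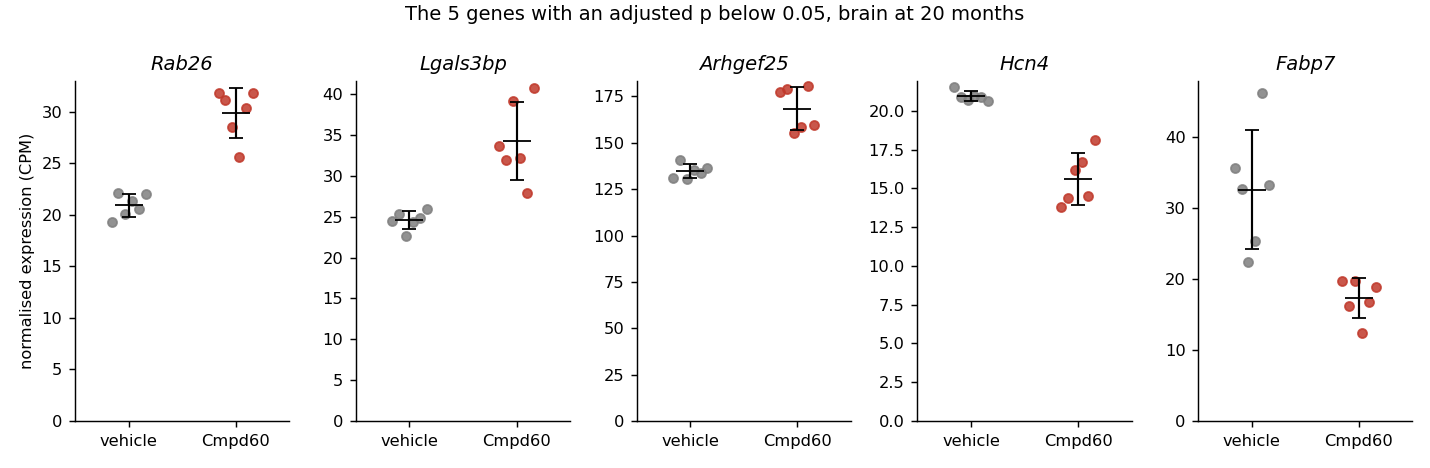
Normalised expression in CPM of the 5 genes with an adjusted p below 0.05, 1 panel per gene and 1 point per library (grey vehicle, red Cmpd60), with the mean ± SD of 6 libraries in black. The groups do not overlap in any panel, and vehicle values span 20.6 to 21.5 CPM for Hcn4 and 22.3 to 46.1 CPM for Fabp7.

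Complete separation of the groups was seen for 226 genes (0.925% of those tested), and the 12 of smallest p in each direction with p below 0.01 and at least 1 CPM were named. Besides the adjusted calls, those that rose were Acsf2, Myadm, Slc4a11, Mroh7, Podxl, Thbs4, Fbxl16, Chrm1 and Vwf, with adjusted p-values of 0.0602 to 0.0868. Thbs4, a matrix protein of the thrombospondin family, had the largest log2 fold change of these, 0.93 (SE 0.18, adjusted p = 0.0868), from 3.22 to 5.11 CPM with vehicle (median 4.33) to 5.25 to 12.3 CPM with Cmpd60 (median 7.34). Libraries 34 and 33 were its highest, at 12.3 and 10.4 CPM. Slc4a11, a membrane transporter of the bicarbonate transporter family, was at 1.04 to 1.54 CPM with vehicle (median 1.37) and 1.98 to 2.97 CPM with Cmpd60 (median 2.27), a log2 fold change of 0.85 (SE 0.16, adjusted p = 0.0748).

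Chrm1, the M1 muscarinic acetylcholine receptor of forebrain neurons, was at 92.3 to 106 CPM with vehicle (median 102) and 107 to 159 CPM with Cmpd60 (median 125), a log2 fold change of 0.39 (SE 0.08, adjusted p = 0.0868). Libraries 33 and 37 were highest, at 159 and 149.7 CPM. Acsf2, a mitochondrial acyl-CoA synthetase, was at 14.96 to 16.8 CPM with vehicle (median 15.3) and 18.6 to 21.8 CPM with Cmpd60 (median 19.8), a log2 fold change of 0.35 (SE 0.06, adjusted p = 0.0602). Its groups did not overlap, and values were close together in each. Myadm had 0.35 (SE 0.06, adjusted p = 0.0748), Mroh7 0.69 (SE 0.13, adjusted p = 0.0748) and Fbxl16 0.30 (SE 0.06, adjusted p = 0.0868).

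The named genes that fell, besides Fabp7 and Hcn4, were Ppp1r3e, Ptch1, Vash2, Sap18b, Adarb1, Tcea1-ps1, Etv4, Rpl34-ps1, Pafah1b3 and Xylt2, with adjusted p-values of 0.0678 to 0.106. Ptch1, the receptor that restrains Hedgehog signalling and is a target of it, was at 133.3 to 148 CPM with vehicle (median 141) and 101 to 133.0 CPM with Cmpd60 (median 111), a log2 fold change of -0.31 (SE 0.06, adjusted p = 0.0748). Library 36, at 133.0 CPM, lay just below the lowest vehicle library, 28, at 133.3 CPM. Gli1, Hhip and Smo of the same pathway, looked up after Ptch1 was seen, had -0.12 (SE 0.17, adjusted p = 0.807), -0.25 (SE 0.10, adjusted p = 0.297) and -0.11 (SE 0.06, adjusted p = 0.443). Adarb1, which encodes the RNA editing enzyme ADAR2, was at 348 to 402 CPM with vehicle (median 378) and 311 to 330.1 CPM with Cmpd60 (median 328), a log2 fold change of -0.21 (SE 0.04, adjusted p = 0.0868).

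Ppp1r3e, a subunit that brings protein phosphatase 1 to glycogen, had -0.43 (SE 0.08, adjusted p = 0.0678), and Vash2, a vasohibin that trims tubulin, -0.54 (SE 0.10, adjusted p = 0.0797). The ETS transcription factor gene Etv4 had -0.40 (SE 0.09, adjusted p = 0.0937), Pafah1b3 -0.41 (SE 0.09, adjusted p = 0.101) and Xylt2, a xylosyltransferase that starts proteoglycan chains, -0.29 (SE 0.07, adjusted p = 0.106). Sap18b is a near copy of Sap18, and Tcea1-ps1 and Rpl34-ps1 are named as pseudogenes, so reads may be divided between copies and their values (-0.38, -0.49 and -0.39) are uncertain. Sap18 itself, a Sin3 complex subunit, had -0.04 (SE 0.07, adjusted p = 0.826).

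Genes that mark brain regions differed widely between the libraries. The median log2 fold change of 12 thalamic genes was -0.46 against 0.0072 over all genes. At p below 0.01, 8 of the 12 were lower and 0 higher, beside 2.03% and 2.26% of all genes. The 8 were Tnnt1 (-0.90, SE 0.23), Gbx2 (-0.84, SE 0.26), Prkcd (-0.64, SE 0.19), Shox2 (-0.64, SE 0.22), Synpo2 (-0.55, SE 0.14), Rgs16 (-0.48, SE 0.12), Plekhg1 (-0.44, SE 0.13) and Ntng1 (-0.24, SE 0.08), none with an adjusted p below 0.117. Prkcd, a protein kinase C abundant in thalamic relay neurons, was at 80.8 to 152 CPM with vehicle (median 91) and 38.5 to 94.7 CPM with Cmpd60 (median 66.4), and the groups overlapped. Tcf7l2, a thalamic transcription factor, had -0.27 (SE 0.21, adjusted p = 0.595).

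The thalamic level of a library, the mean log2 CPM of the 12 genes minus their mean over all libraries, was -0.07 to 0.79 with vehicle and -0.57 to 0.09 with Cmpd60. Vehicle library 30 was the highest and Cmpd60 library 33 the lowest. Without library 30, 4 thalamic genes had p below 0.01 and the median was -0.35, and without Cmpd60 library 33 or 37 the number was 5.

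Cerebellar genes had a median of -0.43, with 12 of 12 below 0 and 3 lower at p below 0.01, beside 2.03% of all genes. Cbln3, a synaptic organizer of granule cells, had -0.66 (SE 0.21, adjusted p = 0.189), Zic1, a granule cell transcription factor, -0.51 (SE 0.16, adjusted p = 0.189) and Grm4, a glutamate receptor of parallel fibres, -0.45 (SE 0.12, adjusted p = 0.145). Cbln3 was at 146.4 to 274 CPM with vehicle (median 176) and 73.3 to 178 CPM with Cmpd60 (median 115), and the groups overlapped. The treated libraries were apart from each other, 33, 37 and 34 being low at levels of -0.94, -0.71 and -0.51, and 36, 38 and 35 at 0.35, 0.29 and 0.03, within the vehicle range of -0.06 to 0.54. The number at p below 0.01 was 1 without library 30, 32, 33, 34 or 37, 7 without 36 or 38, and 8 without both 35 and 38. Of all genes in that last fit, 2.33% were higher and 2.12% lower. Libraries 35, 36 and 38 lay within the vehicle range, so the larger numbers without them are no test of these genes.

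Olfactory bulb genes had a median of -0.61, with 5 of 5 below 0. Sp8, a transcription factor of bulb interneurons, was the 1 with p below 0.01, -0.64 (SE 0.20, adjusted p = 0.187), beside 4.29% of all genes. Vehicle libraries 29 and 30 were low, at levels of -0.58 and -0.25 against 0.53 to 0.71 in the other 4, and the treated ones ran from -1.03 in 36 to 0.27 in 38. The number at p below 0.01 was 4 without library 29 or 30, 3 without 38, and 0 without library 27, 28, 31, 33, 36 or 37.

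Neocortical genes leaned the other way, 12 of 12 above 0 with a median of 0.24. Cplx3, a complexin of deep cortical layers, was the 1 with p below 0.01, 0.27 (SE 0.09, adjusted p = 0.207), beside 4.29% of all genes. Libraries 33, 37 and 34, the ones low in cerebellar genes, had the highest levels at 0.42, 0.26 and 0.22, and 35, 36 and 38 were at -0.12 to -0.11, within the vehicle range of -0.20 to -0.03. Without libraries 35 and 38, left out after the values were seen, 7 neocortical genes had p below 0.01. Of all genes in that fit, 2.33% were higher and 2.12% lower. Both libraries lay within the vehicle range, so the larger number is no test of these genes.

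No striatal, midbrain, hindbrain or cholinergic marker had p below 0.01, with medians of 0.09, -0.12, -0.19 and -0.05. The midbrain and cholinergic members of smallest p were Pou4f1 at -0.50 (SE 0.22) and Gbx1 at -0.40 (SE 0.19). Choroid plexus genes had a median of 0.05 and none at p below 0.01, Sostdc1 coming closest at -0.51 (SE 0.28), and library 34 was below the rest at a level of -1.3. Of 10 hippocampal genes, 2 were higher and 0 lower at p below 0.01, beside 2.26% and 2.03% of all genes, with a list median of -0.08. They were Fibcd1, a marker of CA1 pyramidal neurons, at 0.61 (SE 0.12, adjusted p = 0.0868) and Wfs1, also high in CA1, at 0.20 (SE 0.07, adjusted p = 0.214). The hippocampal list had 4 genes above 0 and 6 below, down to -0.71. Fibcd1 was at 20.3 to 26.7 CPM with vehicle (median 22.5) and 24.9 to 45.4 CPM with Cmpd60 (median 32.04), overlapping between groups.

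With the thalamic level as a covariate, chosen after the levels were seen, 0 genes had an adjusted p below 0.05 in edgeR, 2257 had p below 0.05 and 591 p below 0.01, 254 of them among the 1048. All 24 named genes kept their direction in that fit and 20 kept p below 0.01, the exceptions being Chrm1 (log2 fold change 0.19), Rpl34-ps1, Pafah1b3 and Xylt2. The log2 fold changes were 0.43 for Rab26, 0.27 for Arhgef25, 0.48 for Lgals3bp, -1.09 for Fabp7 and -0.37 for Hcn4. With the olfactory bulb level instead, the log2 fold change of Fabp7 was -0.59 (adjusted p = 0.0594). With the cerebellar level, Hcn4 had -0.32 (adjusted p = 0.122), Arhgef25 0.26 (adjusted p = 0.0904) and Lgals3bp 0.58 (adjusted p = 0.0149). With the neocortical level they had -0.33 (adjusted p = 0.0951), 0.25 (adjusted p = 0.0621) and 0.56 (adjusted p = 0.0204). Of all genes, 1.34% were higher and 1.08% lower at p below 0.01 with the thalamic level in the fit, 1.67% and 1.2% with the cerebellar, 1.65% and 1.43% with the olfactory bulb and 1.81% and 1.4% with the neocortical level. At an adjusted p below 0.05 the shares were 0.00818%, 0.0205% and 0.0164% with the last 3 levels. The levels differ between the groups, so treatment and the make-up of the samples cannot be fully told apart in these fits.

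**Figure D3:**
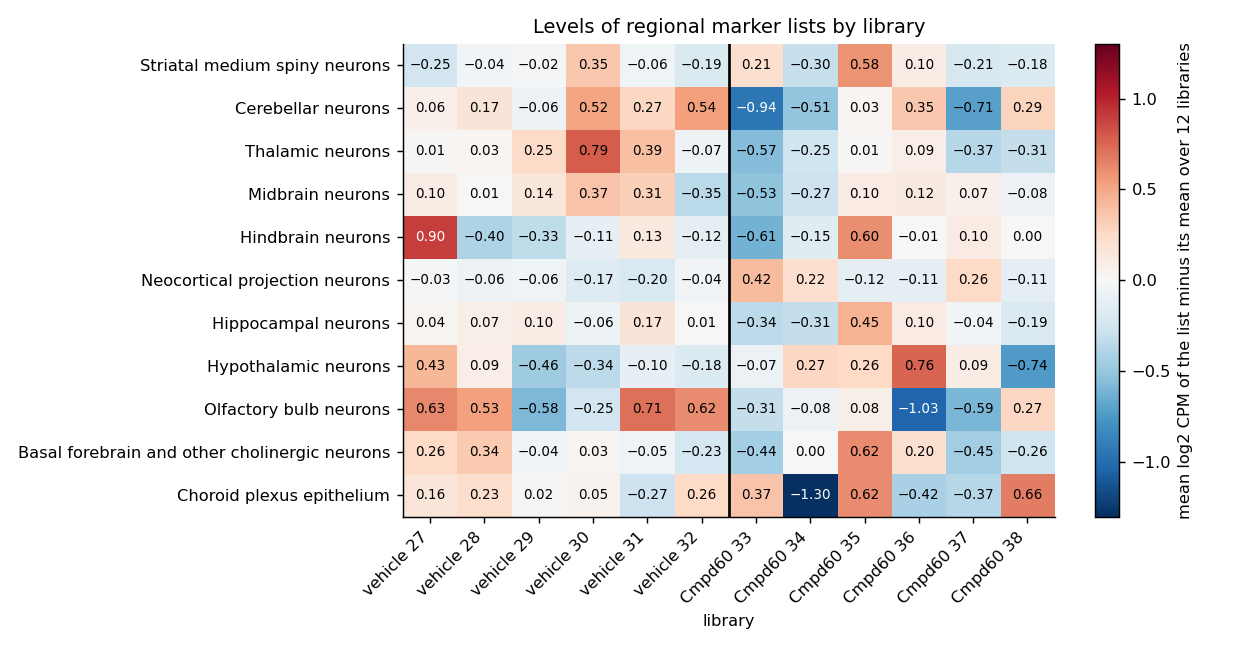
Levels of regional marker lists (rows) in the 12 libraries (columns, vehicle left of the line), as the mean log2 CPM of the list's genes minus their mean over all libraries, printed in each cell and coloured from blue (low) to red (high). Cmpd60 libraries 33, 34 and 37 are low in cerebellar and high in neocortical genes, and vehicle library 30 is the highest in thalamic genes, at 0.79.

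Pituitary hormone RNA marked single libraries. Gh, which encodes growth hormone, was at 493.3 CPM in Cmpd60 library 35, 9.01 CPM in library 38, 2.71 and 1.32 CPM in vehicle libraries 27 and 31, and at most 0.203 CPM in the other 8. Prl, the prolactin gene, was at 45.2 CPM in library 35 and 0.901 CPM in library 38. Pomc, made in the pituitary and the hypothalamus, was at 48.1 CPM in library 35 and 1.02 to 5.96 CPM elsewhere. All 3 had p below 0.01, and without libraries 35 and 38 the log2 fold change of Gh was -5.30. Without those 2 libraries 1056 genes had p below 0.01 and 14 an adjusted p below 0.05 (0.059% of 23730), and 2.33% were higher and 2.12% lower at p below 0.01. Among 12 hypothalamic genes, Pomc was the 1 with p below 0.01 over all 12 libraries, beside 4.29% of all genes, the list median being 0.10.

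Several endothelial genes rose. Of 17, 5 were higher and 0 lower at p below 0.01, beside 2.26% and 2.03% of all genes, with a median of 0.17. Vwf, the clotting and adhesion factor of endothelial cells, was at 34.9 to 40.7 CPM with vehicle (median 38.2) and 41.2 to 102 CPM with Cmpd60 (median 61.6), a log2 fold change of 0.83 (SE 0.17, adjusted p = 0.0868). Its vehicle values were close together, and libraries 34 and 38 reached 102 and 92.8 CPM. Flt1, a receptor for vascular endothelial growth factor, was at 80.0 to 92.8 CPM with vehicle (median 86.9) and 92.8 to 142.2 CPM with Cmpd60 (median 104), a log2 fold change of 0.36 (SE 0.08, adjusted p = 0.106) with no overlap. Ly6a (0.47, SE 0.13), Ly6c1 (0.37, SE 0.11) and the cadherin gene Cdh5 (0.31, SE 0.09) were the others, and the tight junction gene Cldn5 had -0.04 (SE 0.09, adjusted p = 0.890). Podxl, a sialomucin of endothelium, had 0.40 (SE 0.07, adjusted p = 0.0748).

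Of 12 basement membrane genes 4 were higher and 0 lower at p below 0.01, beside 2.26% and 2.03% of all genes, with a median of 0.14. Col4a1 and Col4a2, the collagen IV chain genes, had 0.49 (SE 0.12, adjusted p = 0.111) and 0.44 (SE 0.09, adjusted p = 0.0868), the laminin gene Lama5 0.41 (SE 0.09, adjusted p = 0.0868) and the nidogen gene Nid2 0.50 (SE 0.12, adjusted p = 0.111). Col4a2 was at 39.8 to 58.5 CPM with vehicle (median 44.96) and 56.7 to 76.8 CPM with Cmpd60 (median 60.1), with a small overlap. Among 12 pericyte and smooth muscle genes, the growth factor receptor gene Pdgfrb (0.18, SE 0.06) and the channel gene Kcnj8 (0.40, SE 0.13) were higher, with a median of 0.07. The number of genes higher was 4 to 7 for endothelium and 4 to 5 for basement membrane with any 1 library left out. The summed level of the endothelial genes was 587 to 678 CPM with vehicle and 632 to 834 CPM with Cmpd60. Libraries 34, 38 and 36 were highest, at 834, 817 and 754 CPM. Library 35, at 689 CPM, lay just above the vehicle range, and 37 and 33, at 658 and 632 CPM, inside it. Blood cell genes summed to 174, 160 and 145.8 CPM in treated libraries 36, 34 and 38. They summed to 36.1 to 53.0 CPM in treated libraries 33, 35 and 37. Vehicle library 28 had the largest blood cell sum, 179 CPM, with an endothelial sum of 627 CPM. The endothelial sums overlapped between the groups, and the part of vessel or blood content in these values was not tested.

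Astrocyte genes went both ways, 4 of 22 lower and 1 higher at p below 0.01, beside 2.03% and 2.26% of all genes, with a median of -0.06. Fgfr3, a growth factor receptor, had -0.21 (SE 0.06, adjusted p = 0.168), the zinc transporter gene Slc39a12 -0.20 (SE 0.05, adjusted p = 0.124), Mlc1, of astrocyte endfeet, -0.18 (SE 0.06, adjusted p = 0.186) and the bicarbonate cotransporter gene Slc4a4 -0.18 (SE 0.06, adjusted p = 0.220). Cldn10, a claudin gene, was higher at 0.26 (SE 0.07, adjusted p = 0.149), and the water channel gene Aqp4 had -0.08 (SE 0.07, adjusted p = 0.654). Slc39a12 was at 53.5 to 56.9 CPM with vehicle (median 54.9) and 43.1 to 52.1 CPM with Cmpd60 (median 48.6) with no overlap. The number lower was 2 without library 30 or 32, 1 without 34, and 0 with the thalamic level as a covariate.

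Genes of reactive astrocytes had 15 of 21 above 0 and 3 higher at p below 0.01, beside 2.26% of all genes, with a median of 0.16. C4b, a complement component gene, was at 85.8 to 107 CPM with vehicle (median 93.4) and 101 to 147 CPM with Cmpd60 (median 133.4), a log2 fold change of 0.46 (SE 0.08, adjusted p = 0.0516) with some overlap. Its near copy C4a had 0.56 (SE 0.16, adjusted p = 0.166) at a far lower level, so reads may be divided between them. The protease inhibitor gene Serpina3n had 0.25 (SE 0.08, adjusted p = 0.194) and the oncostatin M receptor gene Osmr 0.31 (SE 0.10, adjusted p = 0.220), while Gfap, the astrocyte filament gene, had 0.14 (SE 0.07, adjusted p = 0.376). The number higher was 1 without library 30, 32, 35 or 37, 5 without 33 and 2 or 3 without any other.

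The 4 other glial lists had 0 to 2 members each at p below 0.01, beside 4.29% of all genes. Of 18 oligodendrocyte genes, Ugt8a, which makes a myelin lipid, was lower at -0.25 (SE 0.07, adjusted p = 0.170). Of 11 precursor genes, the lineage factor Olig2 was lower at -0.32 (SE 0.08, adjusted p = 0.125) and the receptor gene Gpr17 higher at 0.31 (SE 0.08, adjusted p = 0.111). Olig2 was at 37.5 to 42.7 CPM with vehicle (median 40.6) and 26.2 to 37.6 CPM with Cmpd60 (median 32.8), overlapping narrowly. None of 18 homeostatic microglial genes had p below 0.01, Trem2 being at 0.22 (SE 0.09, adjusted p = 0.305), and of 17 genes of disease-associated microglia the growth factor gene Csf1 was higher at 0.20 (SE 0.06, adjusted p = 0.190).

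Of 16 neural stem and progenitor genes, 2 were lower and 0 higher at p below 0.01, beside 2.03% and 2.26% of all genes. They were Fabp7 and Dlx1, a transcription factor of newborn interneurons (-0.31, SE 0.10, adjusted p = 0.191). Dlx2 had -0.37 (SE 0.14, adjusted p = 0.249). The number lower was 5 without library 29, 4 without 30 and 3 without 38. Of all genes, 2.95% were lower without 29, 364 of 24254 without 30 and 454 of 24021 without 38. Vehicle libraries 29 and 30 were also the lowest of their group in olfactory bulb genes. Of 15 ependymal and cilia genes, the dynein genes Dnah5 (0.46, SE 0.12, adjusted p = 0.131) and Dnai1 (0.59, SE 0.17, adjusted p = 0.160) were higher at p below 0.01, which 4.29% of all genes passed. The list went both ways, 9 above 0 and 6 below, down to -0.57, with a median of 0.05. No leptomeningeal, blood cell, lymphocyte or interneuron marker had p below 0.01, with medians of -0.14, 0.17, -0.04 and -0.08. Slc22a6 at -0.31 (SE 0.12), Alas2 at 0.39 (SE 0.42) and Cort at -0.54 (SE 0.21) had the smallest p of the leptomeningeal, blood cell and interneuron lists.

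**Figure D4:**
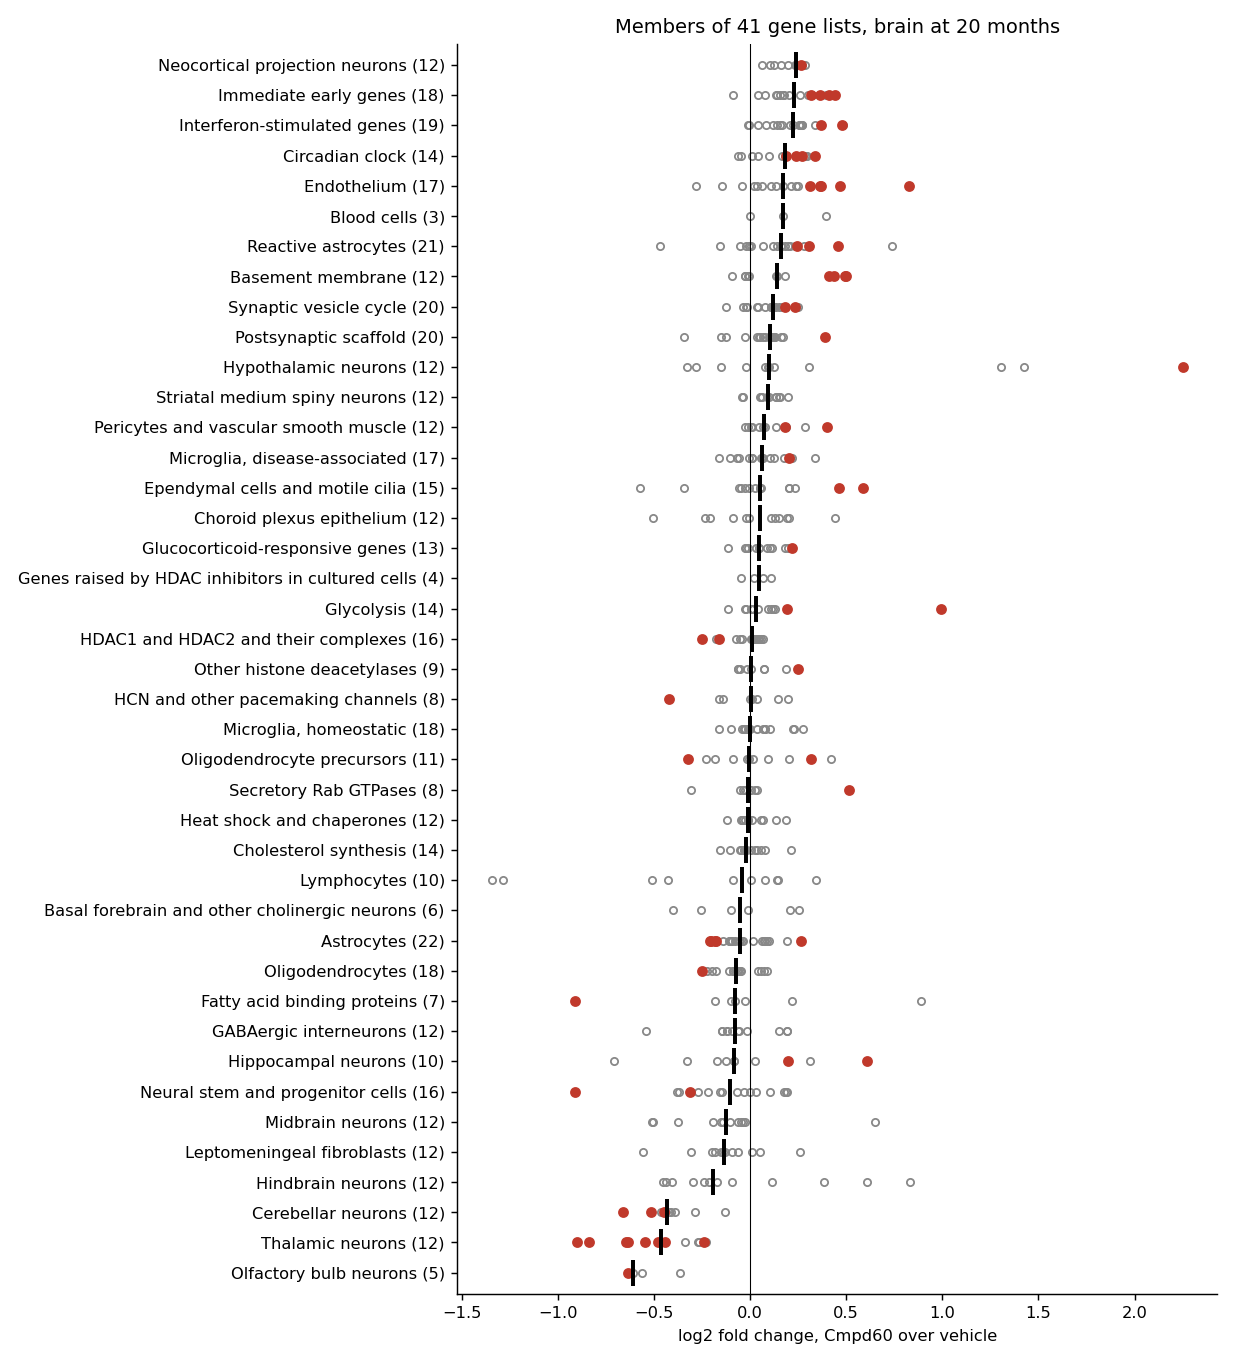
Log2 fold change of each tested member of the gene lists (number tested in brackets, the pituitary list left out for its range and 1 list not shown), with filled red points at p below 0.01, open grey points above it and a black bar at the list median. The olfactory bulb, thalamic and cerebellar lists lie left, at medians of -0.61, -0.46 and -0.43, and the neocortical and immediate early lists right, at 0.24 and 0.23.

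Immediate early genes, which neurons transcribe quickly after firing, had 17 of 18 above 0, against 51.8% of all genes. At p below 0.01, 4 were higher, beside 2.26% of all genes, and the median was 0.23. Nr4a2, an orphan nuclear receptor gene, was at 23.9 to 36.4 CPM with vehicle (median 32.9) and 33.3 to 51.1 CPM with Cmpd60 (median 42.9), a log2 fold change of 0.44 (SE 0.11, adjusted p = 0.115) with overlap. Junb (0.41, SE 0.12, adjusted p = 0.153), Ptgs2 (0.37, SE 0.12, adjusted p = 0.198) and Fosb (0.32, SE 0.08, adjusted p = 0.132) were the others, while Fos had 0.08 (SE 0.14, adjusted p = 0.857) and Arc 0.40 (SE 0.17, adjusted p = 0.304). The level was highest in libraries 34 and 33, at 0.40 and 0.33, and the other treated libraries, at -0.10 to 0.05, were inside the vehicle range of -0.19 to 0.10. The number higher was 7 without library 29 or 38, and 0, 0 and 1 with the thalamic, cerebellar or neocortical level as a covariate.

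Circadian clock genes had 12 of 14 above 0 and 4 higher at p below 0.01, beside 2.26% of all genes, with a median of 0.18. Tef (0.24, SE 0.06, adjusted p = 0.116), Dbp (0.34, SE 0.11, adjusted p = 0.197) and Hlf (0.27, SE 0.09, adjusted p = 0.199) encode the output factors that bind the D box, and Cry2 (0.18, SE 0.06, adjusted p = 0.196) a repressor of the clock. Tef was at 285 to 323 CPM with vehicle (median 309) and 319 to 398 CPM with Cmpd60 (median 366), overlapping narrowly. The activator genes Clock and Bmal1 had -0.05 (SE 0.07, adjusted p = 0.796) and 0.04 (SE 0.05, adjusted p = 0.765). The number higher was 1 without library 27, 31, 33 or 34, 2 without 28, 32 or 38, and 0 with the thalamic level as a covariate.

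Synaptic vesicle genes had 16 of 20 above 0 with a median of 0.12. The synapsin genes Syn1 (0.23, SE 0.06, adjusted p = 0.133) and Syn2 (0.18, SE 0.06, adjusted p = 0.214) were higher at p below 0.01, beside 2.26% of all genes. Postsynaptic genes had 16 of 20 above 0 with a median of 0.10. Camk2a, a kinase of excitatory synapses, was at 1371 to 1679 CPM with vehicle (median 1597) and 1719 to 2537 CPM with Cmpd60 (median 1945), a log2 fold change of 0.39 (SE 0.09, adjusted p = 0.106) with no overlap. With the thalamic level as a covariate the vesicle median was -0.02 and no vesicle or postsynaptic gene was higher at p below 0.01.

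Hdac1 was at 21.9 to 25.0 CPM with vehicle (median 23.0) and 19.0 to 28.4 CPM with Cmpd60 (median 23.0), a log2 fold change of 0.02 (SE 0.08, adjusted p = 0.926), and Hdac2 at 67.6 to 79.3 CPM with vehicle (median 74.0) and 73.4 to 79.9 CPM with Cmpd60 (median 75.6), 0.04 (SE 0.05, adjusted p = 0.775). Of 16 genes of their complexes, the NuRD subunit gene Mbd3 (-0.25, SE 0.07, adjusted p = 0.153) and the scaffold gene Sin3a (-0.16, SE 0.05, adjusted p = 0.186) were lower and 0 higher, with a median of 0.01. Hdac10, a polyamine deacetylase gene, was the 1 of 9 other deacetylase genes to pass p below 0.01, at 0.25 (SE 0.08, adjusted p = 0.202), beside 4.29% of all genes. None of 4 genes that HDAC inhibitors raise in cultured cells did, Cdkn1a, the p21 gene, being at -0.05 (SE 0.09, adjusted p = 0.869) and Clu, of smallest p, at 0.11 (SE 0.05, adjusted p = 0.386).

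Interferon-stimulated genes had 17 of 19 above 0 with a median of 0.23, and Lgals3bp and Ifit3 (0.37, SE 0.11, adjusted p = 0.160) were higher at p below 0.01. Their level was -0.26 to 0.17 with vehicle and -0.22 to 0.47 with Cmpd60, library 36 being highest. With the cerebellar level as a covariate 11 were higher, beside 1.67% of all genes, and with the thalamic level 7, beside 1.34%. These covariates were chosen after the levels were seen. Among 14 glycolysis genes Ldha (0.19, SE 0.06, adjusted p = 0.177) and Gapdh (0.99, SE 0.31, adjusted p = 0.191) passed, but Gapdh was at only 5.25 to 9.76 CPM with vehicle (median 6.16) and 7.90 to 33.0 CPM with Cmpd60 (median 9.02) and has many near copies, so its value is uncertain. Pdk4 was the 1 of 13 glucocorticoid-responsive genes to pass (0.22, SE 0.07, adjusted p = 0.219), and no cholesterol synthesis or heat shock gene did, Hsp90b1 coming closest among the latter at -0.12 (SE 0.05). Beside these lists, 4.29% of all genes passed p below 0.01.

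The AD-control mice, BL6 male littermates without the transgene of an Alzheimer's disease line, aged 6 to 7 months, received the same dose for as many days, 5 with Cmpd60 and 5 with vehicle, and give the named genes a value in other brains. Of 21589 genes, 69 had p below 0.01 (0.32%), 636 p below 0.05 (2.95%), and none an adjusted p below 0.05 in edgeR. At that adjusted threshold limma-voom called 0 and DESeq2 3. The biological coefficient of variation was 0.649 there and 0.114 in the aged brain. Counts were found for 15044 and 15084 genes in 1 vehicle and 1 Cmpd60 library, and for 18804 to 24821 in the others. The shares of genes with p below 0.01 and 0.05 were smaller than those thresholds. In edgeR on simulated counts, 16 of 100 genes changed by a log2 of 0.5 were recovered there, against 81 in the aged brain. Of 100 changed by a log2 of 1, 43 were recovered there and 95 in the aged brain. Few calls there are therefore no evidence that these brains did not respond. Rab26 had a log2 fold change of 0.48 (SE 0.19, adjusted p = 0.999), the 1 of 24 named genes with p below 0.05. Arhgef25 had 0.00 (SE 0.11, adjusted p = 0.999), Lgals3bp -0.25 (SE 0.31, adjusted p = 0.999), Fabp7 -0.27 (SE 0.35, adjusted p = 0.999) and Hcn4 -0.17 (SE 0.24, adjusted p = 0.999).

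The direction was that of the aged brain for 18 named genes. It was so for 59.3% of the 1009 genes with p below 0.01 in the aged brain and for 54.0% of all 21350 genes tested in both. The thalamic, cerebellar, neocortical and endothelial lists had medians of 0.00, 0.05, 0.05 and 0.12 there. Whether the effect differs between the cohorts was not tested.

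**Figure D5:**
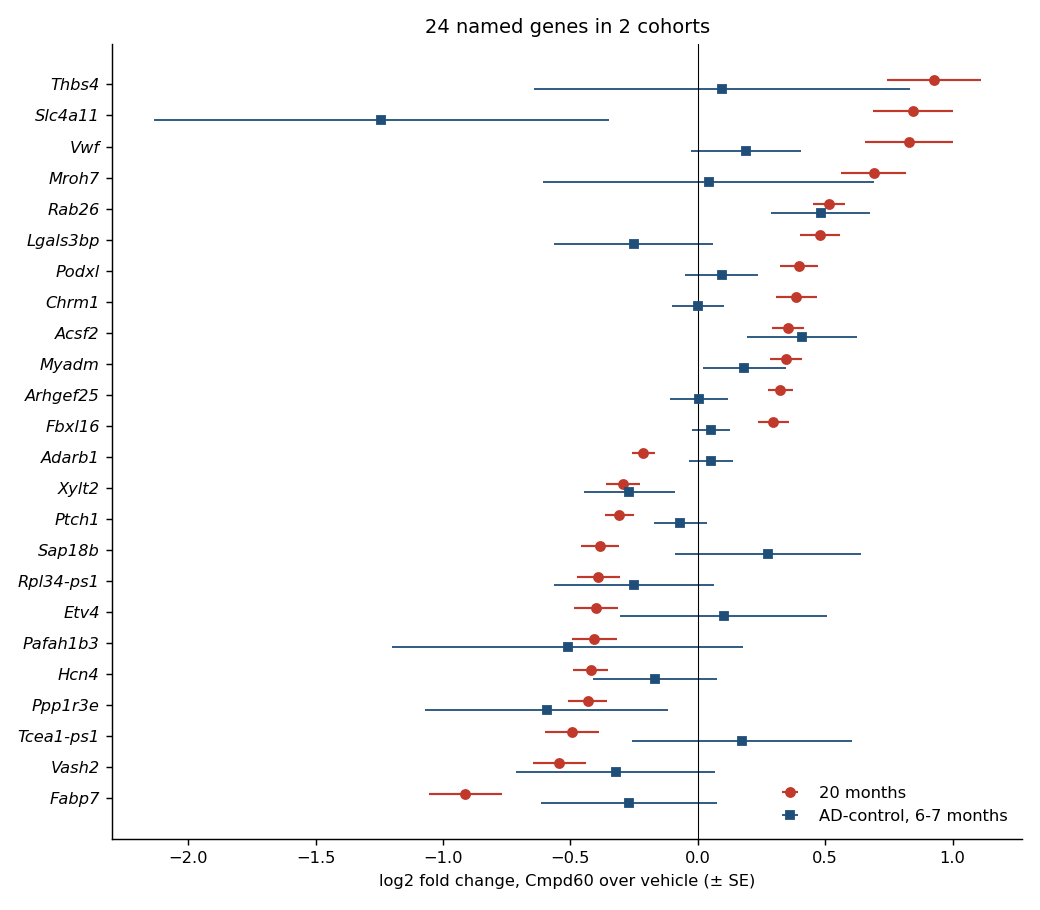
Log2 fold change of Cmpd60 over vehicle with its SE for the 24 named genes in the brain at 20 months (red circles) and in AD-control mice of 6 to 7 months (blue squares). Rab26 lies at 0.52 and 0.48, and the bars of most other genes are wider in the younger mice.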

How the data were processed

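Brain RNA of separate mice was sequenced after oligo-dT selection, TissueLyser homogenization and RNeasy extraction. The deposited values are raw read counts per Ensembl gene for each library, which the authors made with FastQC, Trimmomatic 0.32, HISAT2 2.1.0 and HTSeq 0.11.0, as the submitters' processing notes list them. The genome build is not given in the sources used here. The HTSeq summary lines, 18.2% to 21.9% of each aged brain library, were left out of library sizes and tests. Symbols were matched for 32651 of 54232 IDs.

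A gene was kept when 3 libraries or more had over 2 counts of it, and Cmpd60 was compared with vehicle in edgeR 4.0.16 (TMM, quasi-likelihood test, two-sided, Benjamini-Hochberg adjustment over all genes tested), in R 4.3.3. The SE is the absolute log2 fold change over the square root of F. The study itself used limma-voom. Alternatives were limma-voom (limma 3.58.1), DESeq2 1.42.0, its size factors in edgeR, no filter, at least 10 counts, thinning to the smallest library and leaving out each library, and, chosen after the values were seen, fits without libraries 35 and 38 or with 1 regional level as a covariate. The fits were tested on simulated counts with the means, spread and library sizes of the real libraries, in which 200 genes were changed. Library measures were compared by an exact permutation test over 924 assignments, whose smallest p is 0.00216, in scipy 1.17.1.

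Named were all genes with an adjusted p below 0.05. Named too were the 12 higher and 12 lower genes of smallest p among those with p below 0.01, a mean of at least 1 CPM in 1 group, no overlap between groups and an established symbol, and the members of each list with p below 0.01, or otherwise those of smallest p. Other members and genes were named after their values were seen. The lists hold 562 entries, of which 549 were tested, 10 matched no ID and 3 were below the count filter. Members and lists were chosen with earlier results of these data known. Some list members, and 1 whole list, are not reported here. No set test was run, and other tissues of the series were not analysed here.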

Additional observations from a re-analysis of the deposited data

Results flagged for a closer look

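Among the groups of 6 libraries examined, 5 held a library far from the others by Dixon's criterion, and chance alone gives about 1 in 20, or 7.1 of these groups. Podxl was at 66.1 CPM in Cmpd60 library 34, against 53.5 CPM in the next highest treated library. Adarb1 was at 311 CPM in Cmpd60 library 37, against 325 CPM in the next lowest. The immediate early gene level was 0.10 in vehicle library 29, with the next highest vehicle library at -0.08. The level of the other histone deacetylase genes was 0.11 in Cmpd60 library 34, with the next at 0.02. The level of the genes that HDAC inhibitors raise in cultured cells was 0.0735 in vehicle library 32, with the next at -0.01. What sets these libraries apart was not tested.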

How the results depend on the processing

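The number of genes with an adjusted p below 0.05, 5 in the edgeR fit, was 2 with limma-voom, 398 with DESeq2, which fits all genes with a count, 102 without the filter, 3 after thinning, 14 without Cmpd60 libraries 35 and 38, 0 with the thalamic and 2 with the cerebellar level as a covariate, and 1 to 372 with 1 library left out. On simulated counts, false calls at that threshold were 35 with DESeq2 and 11 with edgeR for the aged brain, and 59 and 4 for the AD-control mice. The number with p below 0.01, 1048, was 591 with the thalamic covariate and 731 (without 34) to 1715 (without 29) with 1 library left out, and within 1.5 times under the others. In AD-control mice that number, 69, was 160 with DESeq2, 171 without the filter, 30 with at least 10 counts, and 32 to 108 with 1 library left out. The share of higher genes among them was 68.1%, against 45.6% with DESeq2 and 46.7% with at least 10 counts. The cause of these shifts was not tested. All 24 named genes kept their direction under every alternative. They have groups that do not overlap, so leaving out a library or changing the test could hardly reverse them. Among the members and named genes with p below 0.01, Shox2, itself a thalamic list member, turned to 0.16 with the thalamic covariate and Gh to -5.30 without libraries 35 and 38. List medians moved by more than the spread between replicates for 15 lists with the thalamic, 10 with the cerebellar, 5 with the neocortical and 3 with the olfactory bulb level as a covariate. No paired analysis was possible because the groups share no replicate numbers. Depth differed between the groups, and genes near 0.113 CPM cannot be told from 0 in the shallowest library.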
